A study of Mus musculus with 24 samples.

Results

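The comparison set inflamed against desert tumours among the well-counted libraries of a NanoString study of mouse mammary tumours, and it holds 13 of the 24 samples of the series. Of these, 8 samples carry the immune infiltrate label inflamed and 5 the label desert. Members were chosen by that label and by library size, and 8 low-count libraries, of which 5 are inflamed, 2 desert and 1 excluded, were left out together with the 3 other excluded samples. All 13 samples are mammary tumour tissue, which had grown as transplants derived from mammary tumours in hosts of BALB/c, a standard inbred mouse strain. Total RNA was measured by NanoString barcode counting, in which labelled probes bound to each RNA are counted without amplification. The inflamed samples have the codes H0, HF2-2968, L0, LF2-5248, GF2-2828, GF2-2952, AF2-2797-1 and AF2-2797-2. The desert samples have the codes F0, FF2-2809, G0, CF2-2819 and CF2-2973. The labels tie the code to tumour origin, and they give no genotype, treatment, age or sex for either class and no basis for the infiltrate class. A class that had been taken from these same RNA values would make the comparison circular. The samples AF2-2797-1 and AF2-2797-2 share a code number and were averaged, which leaves 7 inflamed and 5 desert values, here called tumours. Nothing in the labels says that the others came from separate host animals, so the p-values cover only the spread among these libraries, which may be technical.

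Tumours are commonly called inflamed when lymphocytes lie among the tumour cells and deserts when few are found. Cytotoxic T cells read peptides that tumour and myeloid cells present on MHC molecules, so transcripts of antigen presentation, interferon response and lymphocyte chemokines are commonly used to describe an inflamed tumour. Neutrophils are drawn into mouse tumours by the CXCR2 ligands Cxcl1, Cxcl2 and Cxcl5, carry large amounts of the calcium-binding proteins S100a8 and S100a9, and are known in mammary tumours as cells that can restrain T cells.

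The 8 inflamed libraries held 163054 to 1093001 barcode counts over the 750 genes with values and the 5 desert libraries 107677 to 1110314. Detection limits were taken in each library from the same 75 low-count genes. They lay at a log2 normalised count of 2.02 to 3.66 in the inflamed libraries and 1.98 to 4.23 in the desert libraries. A gene is called expressed here if it exceeded the limit in at least 6 of the 12 tumours, which 565 of the 750 genes did. In bulk tissue, fewer cells of a type and less RNA per cell cannot be told apart. Class and origin overlapped, since the letters A, H and L hold inflamed tumours, C and F desert tumours, and G both (2 inflamed and 1 desert).

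Some libraries stood apart or were most like tumours of the other class. Over the 565 expressed genes the correlation between tumours of different classes had a median of 0.821, against 0.783 within the inflamed tumours and 0.848 within the desert tumours. These are correlations across genes, which are not independent replicates. The inflamed tumour AF2-2797 stood apart from all others, with correlations of 0.555 to 0.690, whereas its own pair of libraries correlated at 0.993. Without it the inflamed tumours had a median of 0.846 among themselves. The inflamed tumour GF2-2828 was most like the inflamed HF2-2968 (0.946) and H0 (0.945) and less like the other tumours of its letter, GF2-2952 and G0 (0.786 and 0.791). The inflamed tumour GF2-2952 was most like the desert tumours CF2-2819 (0.946) and CF2-2973 (0.940). Both inflamed G tumours were thus most like tumours of other letters, as was every other tumour compared here. Whether the codes of the inflamed G tumours are right was not tested. The values within letter G and those without GF2-2952 rest on these codes. The inflamed tumour LF2-5248 was also most like a desert tumour, CF2-2819 (0.880). The first principal component held 35.4% of the variance of the expressed genes and the second 24.8%.

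**Figure D1:**
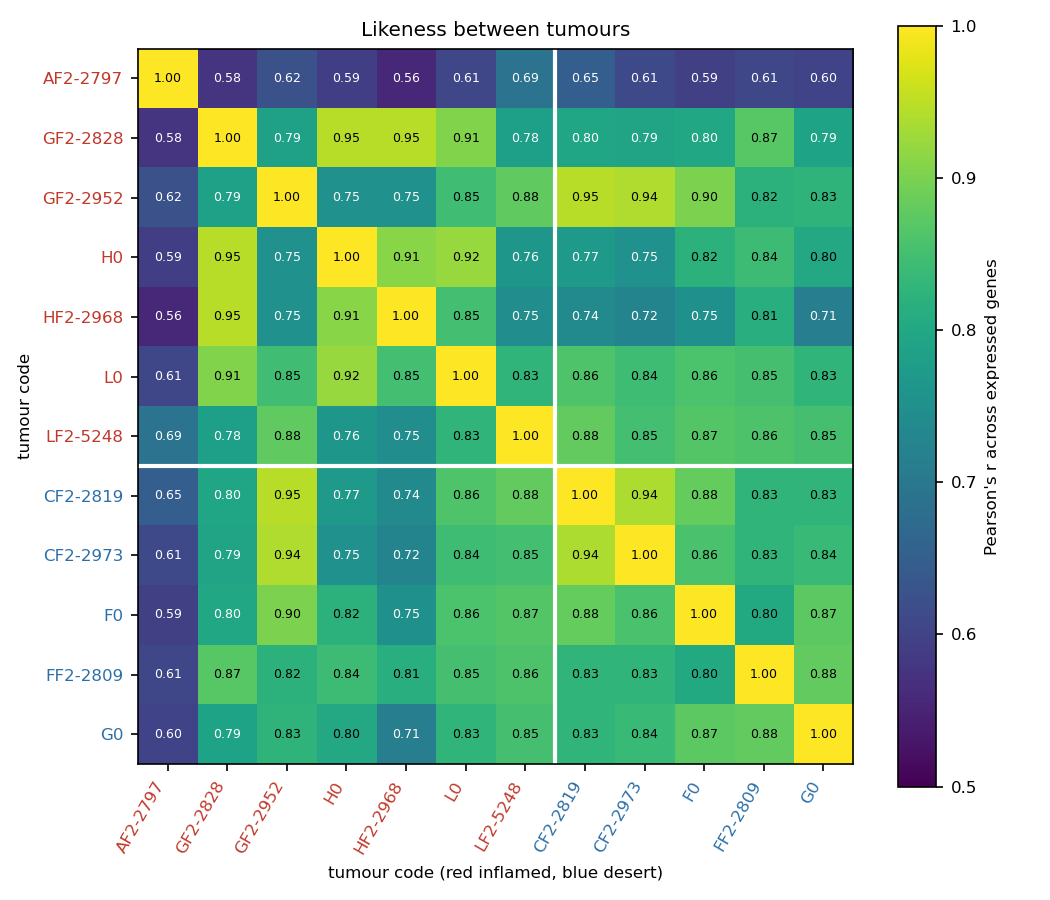
Pearson's r across the 565 expressed genes for each pair of the 12 tumours, inflamed tumours (red codes) before desert tumours (blue codes), with white lines between the classes. AF2-2797 is dark throughout at 0.69 or below, and GF2-2952 is brightest with the desert tumours CF2-2819 and CF2-2973 at 0.95 and 0.94.

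The label was set against leukocyte markers. Ptprc, the pan-leukocyte gene encoding CD45, ranged from 5.61 to 9.45 in inflamed tumours with a median of 8.41, against values of 8.35, 7.10, 7.49, 7.88 and 7.61 in the desert tumours CF2-2819, CF2-2973, F0, FF2-2809 and G0. The classes overlapped, and the mean log2 difference of 0.27 ± 0.61 (SE) did not pass the test (limma adjusted p = 0.948). It was 0.66 without AF2-2797, 1.10 within the codes that carry 0 and -0.10 in F2 codes alone. Of the T cell markers, Cd3e was above the detection limit in 3 of 7 inflamed and 0 of 5 desert tumours, Cd3d in 2 and 0, Cd3g in 4 and 3, and Cd8a in 2 and 0. The B cell gene Cd79a was above it in 0 tumours of either class, and Ms4a1 in 2 inflamed and 0 desert tumours. The desert tumour FF2-2809 had the highest limit, 4.23, and its Cd3e and Ms4a1, both at 3.95, lay under it. Its Ms4a1 was above that of every inflamed tumour, and its Cd3e above that of every inflamed tumour but HF2-2968. These counts thus depend on each library's limit. The macrophage markers Cd68, Csf1r and Adgre1 were above it in all 12 tumours. The sum of the 20 macrophage and monocyte genes ranged from a log2 level of 10.68 to 14.48 in inflamed tumours, against 12.15 to 13.38 in desert tumours.

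Across all 750 genes, 0 passed an adjusted p of 0.05 in limma (0% of the genes tested), and the smallest adjusted p was 0.120. At an unadjusted p under 0.05, 33 genes (4.4%) were higher in inflamed tumours and 23 genes (3.07%) lower. Weights from voom on the recovered counts also gave 0 genes, with 57 at an unadjusted p under 0.05. A 2-sided exact permutation test of the class labels over the 12 tumours has 792 splits and a smallest possible p of about 0.00126. It gave 53 genes at an unadjusted p under 0.05 and 0 after adjustment over the 750 (smallest adjusted permutation p = 0.635). A gene at the smallest possible p could not pass this adjustment alone, so that 0 was nearly fixed in advance. The adjusted permutation p-values of single genes given below share this limit. In 2 genes (0.267%), S100a8 and Il1r2, every inflamed value lay below every desert value, and in 0 genes did every inflamed value lie above. The number of called genes depended on single libraries. Without the inflamed tumour GF2-2952, S100a8 and Hdc were called lower in inflamed tumours (limma adjusted p = 0.0275 and 0.0344). With the 3 well-counted excluded libraries sharing the fit S100a8 and Hdc were again called, each at a limma adjusted p of 0.0455. Of these 3, CF2-2784-1 and CF2-2784-2 share a code number but entered as 2 samples, so this p may overstate the evidence.

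The differences depended on level. The 565 expressed genes had a median log2 difference, inflamed minus desert, of 0.09, with 58.2% of them higher in inflamed tumours. The 185 genes mostly under the detection limit had a median of 0.42, with 80.0% higher in inflamed tumours. Over all 750 genes the median was 0.18, with 63.6% of them higher in inflamed tumours, and after quantile normalisation the median was 0.02. At an unadjusted p under 0.05, the expressed genes comprised 12 higher and 23 lower in inflamed tumours, so 21 of the 33 higher genes were under the limit in most tumours. Spread within a class was wider in inflamed tumours, with a median SD of 0.818 over expressed genes, against 0.640 in desert tumours. Without AF2-2797 the inflamed median SD was 0.607.

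**Figure D2:**
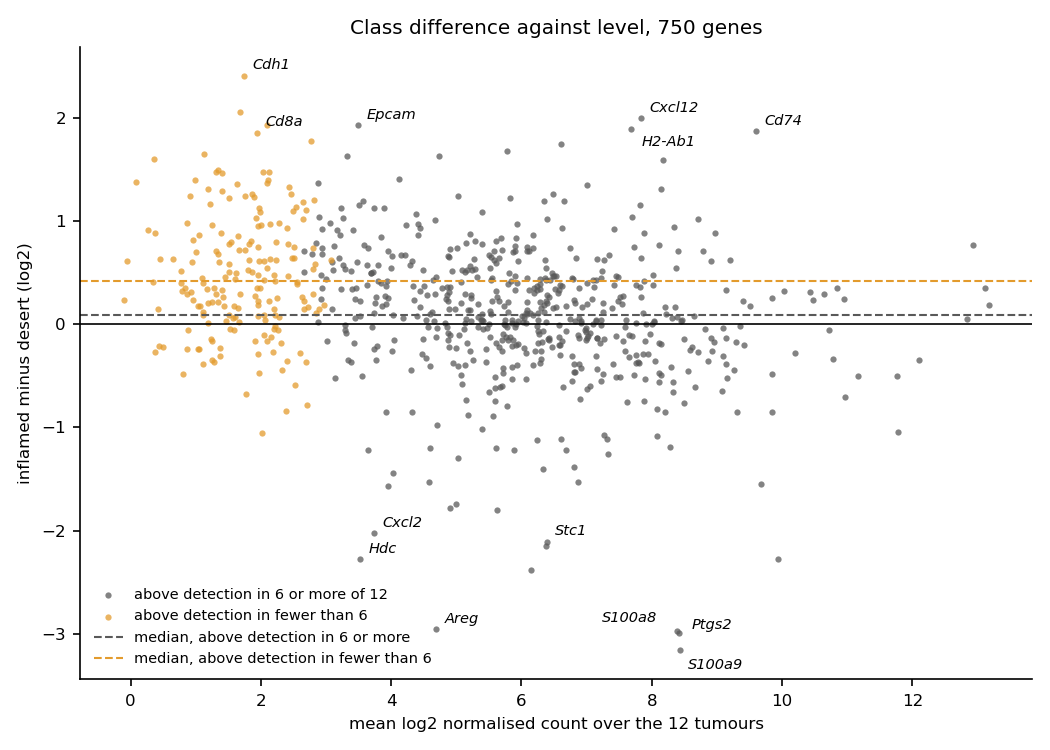
Difference of the class means (inflamed minus desert, log2) against the mean log2 level over the 12 tumours for 750 genes, grey where expressed and orange where above the limit in fewer than 6 tumours, with dashed medians at 0.09 and 0.42. The lowest expressed genes are S100a9, Ptgs2, S100a8 and Areg, at differences of -3.16 to -2.96.

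Neutrophil genes had the lowest median difference of the 29 gene lists described, over all measured members in the 12 tumours. Over expressed members alone, the neutrophil median of -1.30 lay above those of 4 neutrophil chemoattractants (-1.72) and 2 EGF family genes (-1.38). The chemoattractants were also lower than the neutrophil genes in F2 codes alone (-1.68 beside -0.94) and with quantile normalisation (-1.37 beside -1.34), and the mast cell genes were lower within the codes that carry 0 (-2.51 beside -1.65). Of 16 listed genes 8 were measured, and 6 of them had lower and 2 higher means in inflamed tumours, with a median difference of -1.26 beside 0.18 over all genes. None passed the adjusted test, and 4 of the 8 (S100a8, S100a9, Il1r2 and Cxcr2) were lower at an unadjusted p under 0.05, beside 3.07% of all genes. The summed level of the list was 6.70 to 11.01 in inflamed tumours, against 10.60 to 12.32 in desert tumours, where S100a8 and S100a9 make up most of it. Without AF2-2797 the list's median was -0.87, and without GF2-2952 it was -1.45.

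S100a8, which with S100a9 forms calprotectin, had 5.36 in AF2-2797, 5.81 in HF2-2968, 6.61 in GF2-2828, 6.73 in H0, 8.05 in L0, 8.22 in LF2-5248 and 9.27 in GF2-2952 among inflamed tumours. In desert tumours it had 10.91 in CF2-2819, 10.33 in CF2-2973, 9.61 in F0, 9.50 in FF2-2809 and 10.25 in G0. All inflamed tumours lay below all desert tumours, and GF2-2952 came nearest. The means were 7.15 ± 1.41 in inflamed tumours (SD, n = 7) and 10.12 ± 0.58 in desert tumours (SD, n = 5). The log2 difference was -2.97 ± 0.62 (SE), 7.83-fold lower in inflamed tumours, with a limma adjusted p of 0.120 and an unadjusted exact permutation p of 0.00379 (0.635 adjusted over all genes). Over 33 alternative settings its adjusted p ran from 0.0275 to 1.00 and its difference from -3.36 to -1.85. Within letter G the difference was -2.31, and within the codes that carry 0 it was -2.54.

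S100a9 followed the same order at both ends, with 4.11 in AF2-2797 and 10.09 in GF2-2952 and a median of 6.54 in inflamed tumours. The desert tumours had 11.51, 11.004, 9.37, 9.28 and 10.23 in CF2-2819, CF2-2973, F0, FF2-2809 and G0. One inflamed tumour, GF2-2952, lay within the desert range, and the difference was -3.16 ± 0.85 (SE, limma adjusted p = 0.441). Without GF2-2952 it was -3.65 (limma adjusted p = 0.0659). The excluded libraries A0, CF2-2784-1 and CF2-2784-2 had S100a8 at 9.39, 8.33 and 8.60, all under the lowest desert value. Their S100a9 was at 9.40, 8.45 and 8.67, so that A0 lay within the desert range and the other libraries under it. The low-count desert libraries CF2-2819-1 and CF2-2819-2 had S100a8 at 5.52 and 4.23, under their detection limits of 7.75 and 8.29, whereas the well-counted library of the same number, CF2-2819, had 10.91. Whether these libraries are of 1 tumour is not given in the labels.

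Il1r2, a decoy receptor for interleukin 1 that neutrophils carry, ranged from 2.95 to 5.17 in inflamed tumours with a median of 4.94. It had 5.56, 6.08, 5.52, 5.74 and 6.04 in the desert tumours CF2-2819, CF2-2973, F0, FF2-2809 and G0. The classes did not overlap, but only 0.35 separated the highest inflamed from the lowest desert tumour. The difference was -1.30 ± 0.42 (SE, limma adjusted p = 0.586). Cxcr2, the receptor for the Cxcl1 and Cxcl2 chemokines, was above the limit in 3 of 7 inflamed and 5 of 5 desert tumours, with a difference of -1.57 ± 0.56 (SE, limma adjusted p = 0.593), or -0.69 with values raised to the highest detection limit. The other measured members were Mmp9, a matrix protease, at -1.22 ± 0.83, Csf3r, the G-CSF receptor, at -0.34 ± 0.45, the formyl peptide receptor Fpr1 at 0.20 ± 0.44, and Ly6g, the defining surface marker of mouse neutrophils, at 0.08 ± 0.67 (SE). Ly6g was above the detection limit in 1 of 7 inflamed and 0 of 5 desert tumours.

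**Figure D3:**
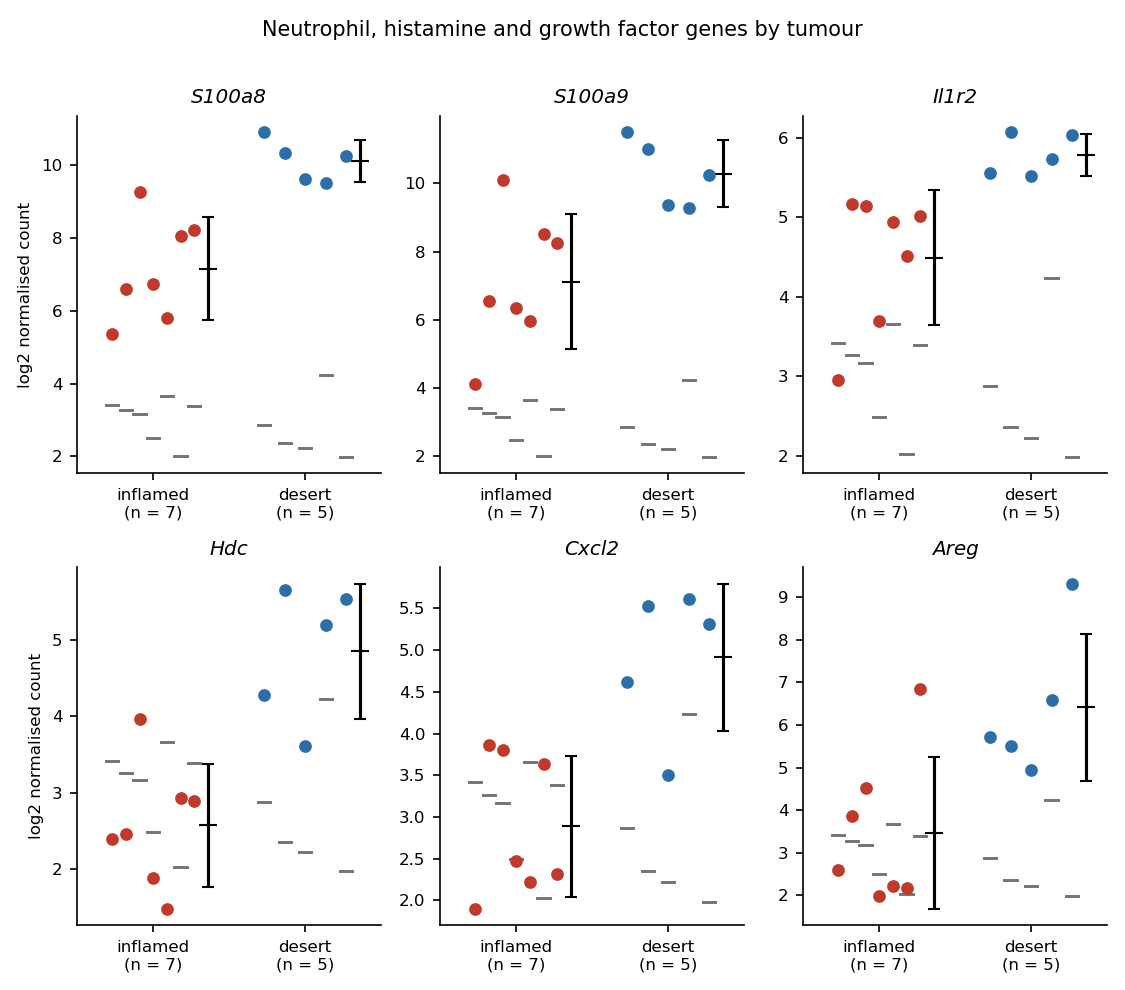
Log2 normalised counts of 6 genes in the 7 inflamed tumours (red, left) and 5 desert tumours (blue, right) of the comparison, with black bars for mean ± SD and grey ticks for each tumour's detection limit, in the code order AF2-2797, GF2-2828, GF2-2952, H0, HF2-2968, L0, LF2-5248, then CF2-2819, CF2-2973, F0, FF2-2809, G0. S100a8 and Il1r2 do not overlap between classes, and most inflamed values of Hdc lie under their ticks.

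The promoter windows of the 4 expressed genes with the smallest p are shown because these genes came nearest to the threshold, although 0 passed the adjusted test. They are RefSeq windows of 250 bases before to 50 after the gene start in mouse build GRCm38.p6, written 5′ to 3′ on the strand of the gene. S100a8 lies at chr3:90668821-90669120 on the plus strand, Hdc at chr2:126618629-126618928 on the minus strand, Cxcl2 at chr5:90903649-90903948 on the plus strand and S100a9 at chr3:90695672-90695971 on the minus strand. Capitals mark matches, on either strand, to an NF-kB motif GGANNTTCC, a C/EBP motif TTNNGCAA or the TATA motif TATAAA.
S100a8: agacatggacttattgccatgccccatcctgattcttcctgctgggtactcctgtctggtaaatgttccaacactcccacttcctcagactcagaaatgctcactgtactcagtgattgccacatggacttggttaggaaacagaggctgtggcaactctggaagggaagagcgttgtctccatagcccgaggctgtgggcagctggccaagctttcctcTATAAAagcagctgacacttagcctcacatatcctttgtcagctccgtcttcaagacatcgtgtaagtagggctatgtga
Hdc: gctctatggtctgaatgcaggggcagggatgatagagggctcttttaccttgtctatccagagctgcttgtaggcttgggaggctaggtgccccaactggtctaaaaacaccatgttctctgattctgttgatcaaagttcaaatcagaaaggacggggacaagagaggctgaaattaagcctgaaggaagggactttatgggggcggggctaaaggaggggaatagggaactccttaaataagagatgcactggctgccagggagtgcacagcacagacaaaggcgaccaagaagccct
Cxcl2: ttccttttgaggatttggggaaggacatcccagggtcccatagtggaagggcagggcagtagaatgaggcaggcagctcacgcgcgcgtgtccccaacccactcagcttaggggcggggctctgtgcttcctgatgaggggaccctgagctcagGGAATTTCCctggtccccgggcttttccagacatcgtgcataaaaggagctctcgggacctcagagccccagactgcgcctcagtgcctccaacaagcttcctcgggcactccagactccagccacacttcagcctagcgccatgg
S100a9: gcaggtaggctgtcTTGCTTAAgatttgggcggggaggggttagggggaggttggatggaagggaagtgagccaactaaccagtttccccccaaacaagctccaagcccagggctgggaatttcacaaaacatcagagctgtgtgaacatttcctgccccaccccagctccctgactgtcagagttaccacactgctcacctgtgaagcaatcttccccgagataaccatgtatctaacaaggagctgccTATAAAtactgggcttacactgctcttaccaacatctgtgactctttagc
The TATA letters stand at position -30 from the gene start in S100a8 and at position 0, the gene start itself, in S100a9. They stand in 13.6% of 32851 promoter windows of this length. The NF-kB letters stand in Cxcl2 and in 4.26% of all windows, and the C/EBP letters in S100a9 and in 10.8%. Hdc holds 0 of the motifs in this window. These matches are a description of letters and were not tested as binding sites.

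Neutrophil chemoattractants had lower means in inflamed tumours for 6 of the 8 measured genes, with a median difference of -1.02. None passed the adjusted test, and 2 of the 8, Cxcl1 and Cxcl2, were lower at an unadjusted p under 0.05, beside 3.07% of all genes. Cxcl2 ranged from 1.90 to 3.86 with a median of 2.48 in inflamed tumours, against 4.62, 5.53, 3.50, 5.62 and 5.31 in the desert tumours CF2-2819, CF2-2973, F0, FF2-2809 and G0. It was above the limit in 3 of 7 inflamed and 5 of 5 desert tumours, and only F0 of the desert tumours lay within the inflamed range. The difference was -2.03 ± 0.49 (SE, limma adjusted p = 0.255), and with values raised to the highest detection limit it was -0.83. Cxcl1 ranged from 3.60 to 7.58 with a median of 5.32 in inflamed tumours, against 8.94, 8.77, 6.22, 5.66 and 8.58 in desert tumours in the same order. The desert tumours F0 and FF2-2809 lay within the inflamed range, and the difference was -2.15 ± 0.80 (SE, limma adjusted p = 0.630). Cxcl5 and Cxcl3, further CXCR2 ligands, had differences of -1.41 ± 0.79 and -0.98 ± 0.66 (SE). Csf3, which encodes G-CSF, was above the limit in 0 inflamed and 3 desert tumours. The median of the list was 0.15 within letter G and -0.04 within the codes that carry 0.

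Inflammatory mediators had lower means in inflamed tumours for 8 of 12 genes, with a median of -0.33. Of these, 3 were lower at an unadjusted p under 0.05 (Ptgs2, Il1b and Il11), beside 3.07% of all genes, and 0 passed the adjusted test. Ptgs2, the inducible prostaglandin synthase COX-2, had 1.71 in AF2-2797 and 6.76 to 10.48 in the other inflamed tumours, against 9.47, 10.57, 10.09, 8.45 and 12.26 in the desert tumours CF2-2819, CF2-2973, F0, FF2-2809 and G0. The difference was -2.99 ± 1.16 (SE, limma adjusted p = 0.630) and -2.08 without AF2-2797, where the gene lay under the detection limits of both libraries. Il1b, a cytokine of activated myeloid cells, ranged from 3.68 to 7.43 in inflamed tumours with a median of 6.24. It had 8.24, 8.42, 6.43, 7.20 and 7.75 in desert tumours in the same order, and the difference was -1.39 ± 0.61 (SE, limma adjusted p = 0.630). Tnf, encoding tumour necrosis factor, differed by 0.24 ± 0.41 (SE).

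Hdc encodes histidine decarboxylase, the enzyme that makes histamine in mast cells, basophils and immature myeloid cells. It had 1.48 in HF2-2968, 1.89 in H0, 2.40 in AF2-2797, 2.47 in GF2-2828, 2.90 in LF2-5248, 2.93 in L0 and 3.97 in GF2-2952 among inflamed tumours. In desert tumours it had 4.27 in CF2-2819, 5.66 in CF2-2973, 3.61 in F0, 5.19 in FF2-2809 and 5.54 in G0. Of the inflamed tumours only GF2-2952 lay above the lowest desert tumour, F0. It was above the detection limit in 2 of 7 inflamed and 5 of 5 desert tumours, so most inflamed values are at background. The difference was -2.28 ± 0.48 (SE, limma adjusted p = 0.120), 4.85-fold lower in inflamed tumours, with an unadjusted exact permutation p of 0.00253 (0.635 adjusted over all genes). With values raised to the highest detection limit it was -0.75, with a limma adjusted p of 0.607. Over 33 alternative settings the limma adjusted p of Hdc ran from 0.0344 to 0.948.

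Of the 6 measured mast cell genes, Hdc among them, 5 had lower means in inflamed tumours, with a median of -0.72, and 0 passed the adjusted test. Of the 5 genes other than Hdc, 4 were lower, with a median of -0.59. The median of the list was -2.51 within the codes that carry 0 and 0.50 in F2 codes alone. Cpa3, a mast cell carboxypeptidase, was above the limit in 4 of 7 inflamed and 3 of 5 desert tumours and differed by -0.85 ± 0.89 (SE). The tryptase gene Tpsab1 differed by -1.20 ± 0.84 (SE, limma adjusted p = 0.735), and in tumours with F2 codes alone it differed by 0.44. The IgE receptor subunit Ms4a2 was above the limit in 0 of 12 tumours, and Kit, the stem cell factor receptor, differed by 0.64 ± 0.48 (SE).

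The 10 expressed genes with the smallest p among those lower in inflamed tumours also held Areg, Stc1, Nfil3 and Twist2, of which 0 passed the adjusted test. Areg encodes amphiregulin, a ligand of the EGF receptor that drives mammary duct growth. It ranged from 1.97 to 4.53 in 6 inflamed tumours and had 6.86 in LF2-5248, against 5.71, 5.50, 4.94, 6.60 and 9.33 in the desert tumours CF2-2819, CF2-2973, F0, FF2-2809 and G0. Of the inflamed tumours only LF2-5248 lay within the desert range, and the difference was -2.96 ± 0.91 (SE, limma adjusted p = 0.586). It was -1.92 in F2 codes alone, -5.06 within the codes that carry 0 and -1.77 with values raised to the highest detection limit. The receptor genes Egfr and Erbb2 differed by 0.20 and 0.78.

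Stc1, a secreted glycoprotein, had 8.26 in GF2-2952 and 3.87 to 5.68 in the other inflamed tumours, against 6.44 to 9.46 in desert tumours. The difference was -2.11 ± 0.69 (SE, limma adjusted p = 0.586), and -0.998 in F2 codes alone. Nfil3, a transcription factor of lymphoid and myeloid cells, ranged from 5.13 to 7.83 in inflamed tumours, against the narrow range of 7.80 to 8.30 in desert tumours. One inflamed tumour, GF2-2952, reached into the desert range by 0.03, and the difference was -1.25 ± 0.41 (SE, limma adjusted p = 0.586). Twist2, a regulator of mesenchymal cells, differed by -1.79 ± 0.62 (SE, limma adjusted p = 0.586).

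MHC class II genes, which present peptides to CD4 T cells, had higher means in inflamed tumours for 8 of the 8 measured, beside 63.6% of all genes. Their median difference was 1.43 beside 0.18 over all genes. None passed the adjusted test and 1, H2-Ab1, was higher at an unadjusted p under 0.05, beside 4.4% of all genes. H2-Ab1 had 12.09 in HF2-2968, 10.21 in GF2-2828, 9.01 in H0, 7.93 in AF2-2797, 7.36 in GF2-2952, 6.49 in L0 and 6.19 in LF2-5248 among inflamed tumours. In desert tumours it had 5.77 in CF2-2819, 6.60 in CF2-2973, 7.02 in F0, 7.19 in FF2-2809 and 6.30 in G0. The inflamed tumours HF2-2968, GF2-2828 and H0 were highest and L0 and LF2-5248 lay within the desert range. The difference was 1.89 ± 0.87 (SE, limma adjusted p = 0.639).

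Cd74, the invariant chain that guides class II molecules, had the same 3 inflamed tumours on top with 14.01, 12.40 and 11.38, and 8.20 to 9.20 in the other 4. The desert tumours had 7.09, 8.69, 9.12, 9.30 and 8.36 in CF2-2819, CF2-2973, F0, FF2-2809 and G0. Outside those 3 tumours the classes overlapped, and the difference was 1.87 ± 0.93 (SE, limma adjusted p = 0.659). H2-Aa and H2-Eb1, the genes of further class II chains, differed by 1.59 ± 0.96 and 1.74 ± 0.93 (SE). Within letter G the median of the list was 1.96, without AF2-2797 it was 1.69, and without both inflamed G tumours it was 1.34. H2 genes are close relatives, and the files do not show how far their probes tell them apart.

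MHC class I genes and those of peptide processing had higher means in inflamed tumours for 13 of 13, beside 63.6% of all genes. Their median was 0.63, and 0 passed the adjusted test. Tap2 and Tap1 encode the transporter that loads peptides onto class I molecules. Tap2 ranged from 6.27 to 7.95 with a median of 6.55 in inflamed tumours, against 6.26, 5.42, 6.42, 6.74 and 5.60 in the desert tumours CF2-2819, CF2-2973, F0, FF2-2809 and G0. The difference was 0.93 ± 0.42 (SE, limma adjusted p = 0.630). Tap1 ranged from 5.33 to 7.69 with a median of 5.86 in inflamed tumours, against 5.34, 5.44, 5.46, 5.30 and 4.43 in desert tumours in the same order. All inflamed tumours but GF2-2828 lay above all desert tumours, and the difference was 0.83 ± 0.41 (SE, limma adjusted p = 0.639). Psmb9, an immunoproteasome subunit, ranged from 7.32 to 9.09 with a median of 8.22 in inflamed tumours, against 8.70, 7.21, 6.52, 7.28 and 5.71 in desert tumours. Only CF2-2819 of the desert tumours reached the inflamed range, and the difference was 1.04 ± 0.49 (SE, limma adjusted p = 0.639).

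**Figure D4:**
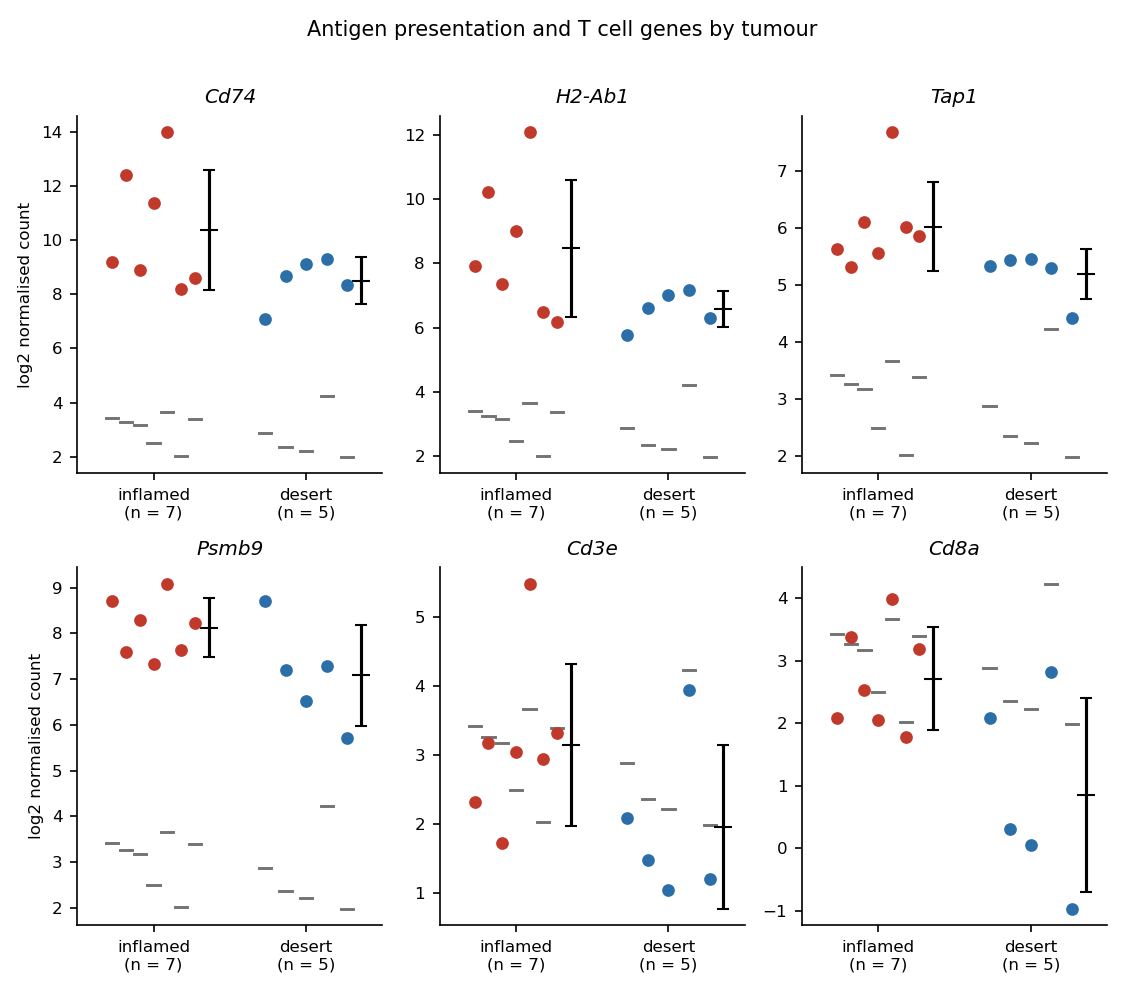
Log2 normalised counts of 6 genes of antigen presentation and T cells in the 7 inflamed tumours (red, left) and 5 desert tumours (blue, right), with black bars for mean ± SD and grey ticks for each tumour's detection limit, tumours in the code order AF2-2797, GF2-2828, GF2-2952, H0, HF2-2968, L0, LF2-5248, then CF2-2819, CF2-2973, F0, FF2-2809, G0. Cd74 and H2-Ab1 lie far over the ticks in all 12 tumours, and Cd3e and Cd8a lie mostly near or under them, with 0 of 5 desert tumours above. Cd3e in HF2-2968 lies well over its tick, at 5.48 beside 3.66.

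T cell genes had higher means in inflamed tumours for 18 of the 18 measured, with a median of 1.08, but only 5 of the 18 were expressed. None passed the adjusted test, and 8 were higher at an unadjusted p under 0.05, beside 4.4% of all genes. Of those 8, 7 were not expressed, as were 13 of the 18, and of all genes that were not expressed 80.0% had higher means in inflamed tumours. With values raised to the highest detection limit, which leaves 594 of the 750 genes with any value above it, the median of the remaining members was 0.06, and with quantile normalisation it was 0.63. Cd8a, the co-receptor of cytotoxic T cells, ranged from 1.78 to 3.99 with a median of 2.53 in inflamed tumours, against 2.09, 0.31, 0.05, 2.81 and -0.97 in the desert tumours CF2-2819, CF2-2973, F0, FF2-2809 and G0. Both classes lay mostly under the limit, and the difference was 1.86 ± 0.63 (SE, limma adjusted p = 0.586). Cd3e, an invariant part of the T cell receptor, had 5.48 in HF2-2968 and 1.72 to 3.31 in the other inflamed tumours, against 1.05 to 3.95 in desert tumours. Cd2, an adhesion molecule of T and NK cells, was above the limit in 6 of 7 inflamed and 2 of 5 desert tumours and differed by 1.03 ± 0.46 (SE, limma adjusted p = 0.630), or 0.10 with values raised to the highest limit.

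Of the 15 cytotoxic and NK cell genes 7 were expressed, and 12 had higher means in inflamed tumours. Beside this count, 63.6% of all genes and 80.0% of those not expressed were higher in inflamed tumours. The median of the list was 0.74, and 0 genes passed the adjusted test. The median was 0.24 with quantile normalisation and 0.11 with values raised to the highest limit. Ctsw, a cathepsin of cytotoxic lymphocytes, had the smallest p among the expressed genes higher in inflamed tumours. It ranged from 2.04 to 4.54 with a median of 3.63 in inflamed tumours, against 2.82, 1.89, 1.37, 2.07 and 2.24 in the desert tumours CF2-2819, CF2-2973, F0, FF2-2809 and G0. All inflamed tumours but GF2-2952 lay above all desert tumours. It was above the limit in 5 of 7 inflamed and 1 of 5 desert tumours, and the difference was 1.37 ± 0.42 (SE, limma adjusted p = 0.586), or 0.04 with values raised to the highest limit. The granzyme gene Gzmb differed by 0.79 (limma adjusted p = 0.735).

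CD4 and regulatory T cell genes had a median of 0.54, or 0.07 with values raised to the highest limit. Of the 12, 3 were expressed and 9 were higher in inflamed tumours, beside 63.6% of all genes. Foxp3, the regulator that defines regulatory T cells, was above the limit in 0 of 12 tumours, and Cd4 in 2 of 7 inflamed and 2 of 5 desert tumours. Of the 6 B cell and plasma cell genes 0 were expressed, and their median of 0.18 was -0.30 with quantile normalisation. Immune checkpoint genes had a median of 0.49 with 8 of 12 higher, beside 63.6% of all genes. Their median was 0.15 with values raised to the highest limit. Btla, an inhibitory receptor of lymphocytes, was above the limit in 3 of 7 inflamed and 0 of 5 desert tumours and differed by 1.10 ± 0.37 (SE, limma adjusted p = 0.586). Cd274, encoding PD-L1, differed by 0.35, and Cd47, a signal against engulfment, by -0.76 ± 0.50 (SE).

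Lymphocyte chemokines and their receptors had higher means in inflamed tumours for 13 of 14, beside 63.6% of all genes. Their median was 0.65, or 0.08 with values raised to the highest limit. Ccl5, a chemokine of T cells and myeloid cells, ranged from 5.12 to 8.51 with a median of 6.35 in inflamed tumours, against 6.16, 5.90, 4.70, 6.32 and 5.19 in the desert tumours CF2-2819, CF2-2973, F0, FF2-2809 and G0. HF2-2968, L0 and GF2-2828 were highest, AF2-2797 and GF2-2952 lay within the desert range, and the difference was 1.20 ± 0.56 (SE, limma adjusted p = 0.639). The interferon-induced chemokines Cxcl10 and Cxcl9 differed by 0.74 and 0.79, and Cxcl9 by -0.04 without the letter G. Type I interferon response genes had a median of 0.29, with 14 of 19 higher, beside 63.6% of all genes. Their median was -0.11 in F2 codes alone, 0.85 within the codes that carry 0 and 0.46 without AF2-2797. Interferon gamma response genes had a median of 0.13, with 6 of 9 higher, beside the same 63.6% of all genes. Their median was -0.05 without GF2-2952 and 0.43 without AF2-2797. In both interferon lists 0 genes reached an unadjusted p under 0.05.

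Macrophage and monocyte genes had higher means in inflamed tumours for 16 of 20, beside 63.6% of all genes, with a median of 0.35, and 0 reached an unadjusted p under 0.05. The median was 0.74 without AF2-2797, 1.19 within the codes that carry 0 and 0.09 in F2 codes alone. Ccr2, the receptor that draws monocytes into tissue, had 9.69 to 10.57 in the inflamed tumours L0, GF2-2828, H0 and HF2-2968 and 5.71 to 7.79 in the other 3, against 6.36 to 8.36 in desert tumours. The inflamed tumours thus lay above, within and below the desert range, and the difference was 1.31 ± 0.81 (SE, limma adjusted p = 0.726). Csf1r, the growth factor receptor of macrophages, split in a like way, with 9.73 to 10.88 in the same 4 inflamed tumours, 6.75 to 7.77 in the other 3 and 7.07 to 9.23 in desert tumours. Cd68, a lysosomal macrophage protein, differed by -0.25, and by 0.20 without AF2-2797. Dendritic cell genes had higher means in inflamed tumours for 7 of 7, beside 63.6% of all genes, with a median of 0.45. That median was 0.77 without AF2-2797, 0.29 with quantile normalisation and 0.30 with values raised to the highest limit. Itgax, encoding CD11c, had 6.97 in HF2-2968 and differed by 1.13 ± 0.62 (SE, limma adjusted p = 0.671), or 0.50 with values raised to the highest limit. Complement genes had a median of 0.23 and Toll-like receptor genes one of 0.16, beside 0.18 over all genes. Without AF2-2797 these were 0.63 and 0.52, in F2 codes alone -0.12 and 0.09, and within letter G 0.49 and -0.04.

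Among stromal genes, Cxcl12 had the second smallest p of the expressed genes higher in inflamed tumours. It encodes a chemokine that fibroblasts make and that retains leukocytes carrying Cxcr4. Cxcl12 had 6.17 in LF2-5248 and 7.92 to 9.89 in the other 6 inflamed tumours, against 8.17, 7.40, 7.56, 5.13 and 5.06 in the desert tumours CF2-2819, CF2-2973, F0, FF2-2809 and G0. LF2-5248 and GF2-2952 lay within the desert range and the other 5 inflamed tumours above it, and the difference was 2.00 ± 0.71 (SE, limma adjusted p = 0.593). It was 1.96 without AF2-2797 and 3.68 within letter G. Pdgfrb, a receptor of fibroblasts and pericytes, differed by 1.20 ± 0.57 (SE, limma adjusted p = 0.639). The 13 endothelial and angiogenesis genes had a median of 0.01 with 7 higher. This median was -0.73 within the codes that carry 0, 0.59 in F2 codes alone and -0.05 with quantile normalisation. Angpt1 and Angpt2, ligands of the endothelial receptor Tek, differed by -1.22 and -0.62 with limma adjusted p-values of 0.728 and 0.681. The TGF-beta family had a median of 0.01 (-0.09 with quantile normalisation), in which Bmp2, a bone morphogenetic protein, differed by -1.74 ± 0.75 (SE, limma adjusted p = 0.630).

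Among the epithelial genes AF2-2797 stood far above the other tumours of the 2 classes, but not above the excluded library of its letter, A0. Epcam, an adhesion molecule of epithelial cells, had 10.15 in AF2-2797 and 2.74 to 4.39 in the other inflamed tumours, against 1.92, 1.89, 1.05, 3.81 and 3.18 in the desert tumours CF2-2819, CF2-2973, F0, FF2-2809 and G0. Cdh1, encoding E-cadherin, had 7.25 in AF2-2797 and 0.72 to 3.48 in the other inflamed tumours, and was above the limit in no other tumour of either class. The excluded library A0 had Epcam at 10.96 and Cdh1 at 3.40, both over its limit of 2.56. The excluded libraries CF2-2784-1 and CF2-2784-2 had Epcam at 1.52 and 2.61 and Cdh1 at 1.08 and 2.08. The list's median of 1.66 was 0.96 without AF2-2797. Mesenchymal transition genes had a median of -0.43, with 5 of 7 lower in inflamed tumours, and of -0.12 without AF2-2797.

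Proliferation genes had a median of -0.17 with 6 of 9 lower in inflamed tumours, and of -0.41 without AF2-2797. Mki67, a marker of cycling cells, ranged from 8.85 to 10.67 in inflamed tumours, against 8.84 to 9.72 in desert tumours. Anln and Ccnd1, which act in cytokinesis and in the start of the cell cycle, differed by -0.74 ± 0.32 and -0.85 ± 0.37 (SE), each at a limma adjusted p of 0.630. Of the housekeeping genes, Eif2b4 differed by 0.10 and Hdac3 by -0.16, with the opposite sign for each without AF2-2797 (-0.31 and 0.09). Platelet and adipose tissue genes, with 2 measured members each, had medians of -0.03 and 0.04, the adipose median being -0.15 with quantile normalisation, and the 3 eosinophil genes one of 0.42, or -0.04 with quantile normalisation.

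**Figure D5:**
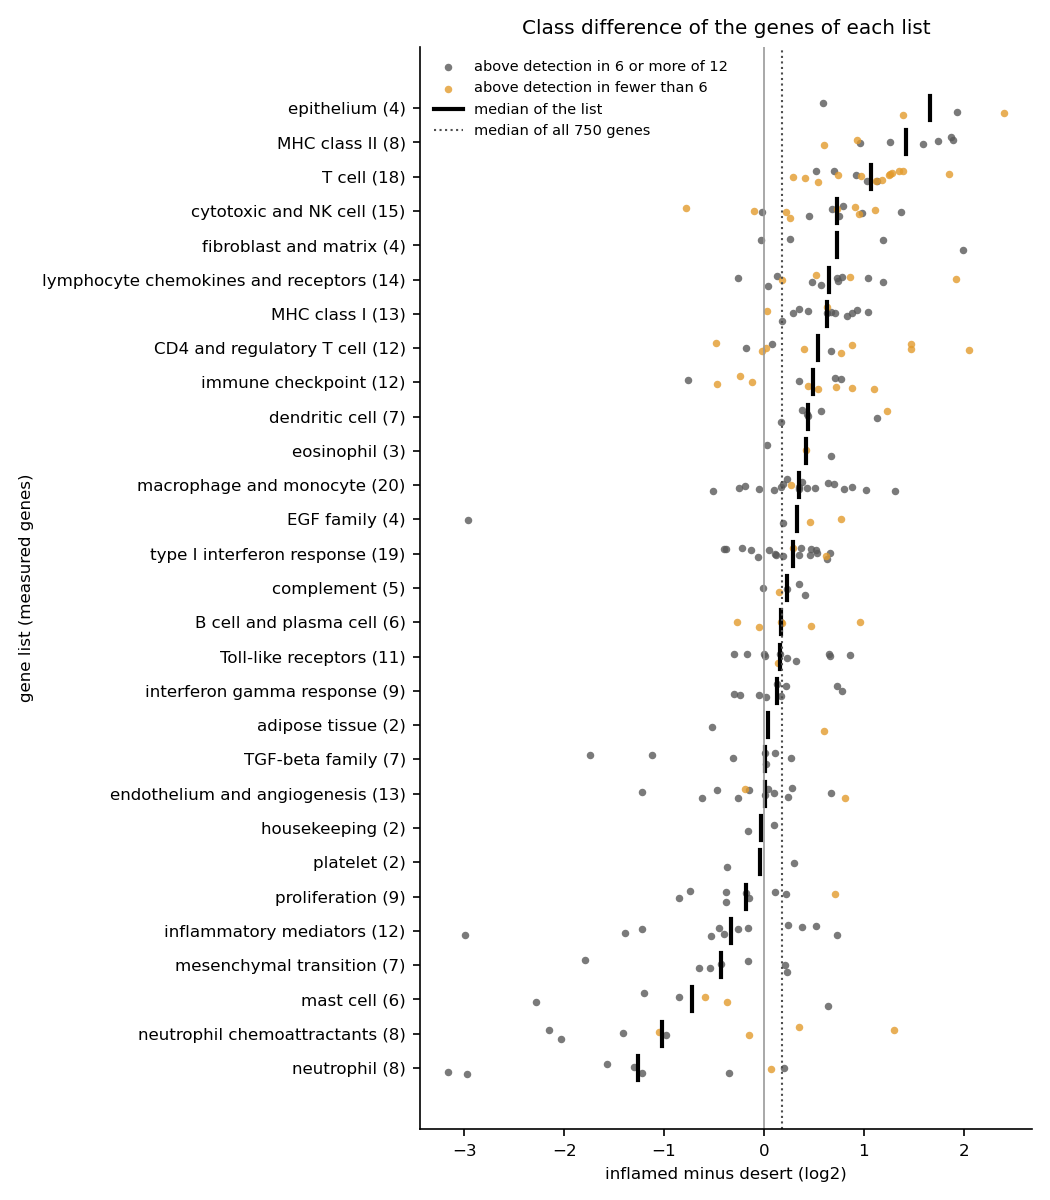
Class difference (inflamed minus desert, log2) of each measured gene in 29 lists, grey where expressed and orange where not, with a black bar at each list's median and a dotted line at the median of all 750 genes, 0.18. Neutrophil genes are at the bottom with a median of -1.26, and MHC class II and epithelial genes at the top with 1.43 and 1.66.

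Other expressed genes named by their p were higher in inflamed tumours. Lgals9, encoding galectin-9, ranged from 7.71 to 8.94 with a median of 8.52 in inflamed tumours, against 8.01, 7.25, 7.71, 7.97 and 7.40 in the desert tumours CF2-2819, CF2-2973, F0, FF2-2809 and G0. All inflamed tumours but GF2-2952 lay above all desert tumours, and the difference was 0.77 ± 0.30 (SE, limma adjusted p = 0.630). Maml2, a coactivator of Notch signalling, had 8.09 to 8.16 in H0, HF2-2968 and GF2-2828 and 4.18 to 6.02 in the other inflamed tumours, against 4.17 to 5.53 in desert tumours. Tnfsf8, the CD30 ligand, Ndufa4l2, F2rl1, a protease-activated receptor, and Fstl3, an activin-binding protein, differed by 1.63, 0.91, 1.24 and 0.83, each at a limma adjusted p of 0.630. With values raised to the highest detection limit they differed by 0.45, 0.07, 1.08 and 0.83.

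The codes fall into 4 tumours that carry 0 and 8 that carry F2, and libraries of 0 codes held 982205 to 1110314 counts and those of F2 codes 107677 to 449997. Whether the class difference itself differed between the 2 kinds of code was tested as an interaction. In limma 0 of 750 genes passed (0%), the smallest adjusted p was 0.846, and 15 genes had an unadjusted p under 0.05. Tpsab1 had the smallest p of the named genes, with a class difference of -4.09 within 0 codes and 0.44 in F2 codes. With F2 codes alone the smallest adjusted p of the class comparison was 0.948, and S100a8 differed by -3.19 and Hdc by -2.40.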

How the data were processed

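Per the labels, RNA was prepared with Trizol and labelled with NanoString barcodes. The authors deposited log2 values, 1 column per sample. Of 784 rows, 34 hold no value (14 control probes and 20 genes), which leaves 750 genes, of which 744 symbols match the RefSeq annotation and 6 match as synonyms. Every value divided back to a whole count with 1 factor per library (within 0.001), so a deposited log2 value is the log2 of a count times that factor; how that factor was set and whether background was subtracted is not given in the sources used here. Count recovery and limma fits were tested on simulated data.

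Samples AF2-2797-1 and AF2-2797-2 were averaged. Detection limits lie 2 SD above the mean log2 value of 75 low-count genes in a library. The same 75 genes served every library, those with the lowest mean share of counts over the well-counted libraries of all classes. The class test used lmFit and eBayes of limma 3.58.1 (R 4.3.3, 12 tumours, 2-sided, Benjamini-Hochberg over 750 genes, threshold 0.05), with voom, an exact permutation test and an interaction with code type beside it. Alternatives changed the scaling, low values, variance model, blocks and libraries, and left out each tumour and each letter in turn.

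The members and the 29 gene lists (414 genes, 254 of them measured) were chosen with earlier results of these data known. Named were the 10 expressed genes with the smallest p in each direction, 2 genes of each list by p, and 25 immune and tumour genes by name, of which 1 is not reported here. Other list members were named after their values were seen. Lists were described by counts and medians only. Counting error and background limit the low genes, since 1 count of a library sets its step.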

Additional observations from a re-analysis of the deposited data

Results flagged for a closer look

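Within each class, the highest and the lowest of the 77 named genes' values were set against the other tumours with Dixon's test, over 154 groups, of which chance alone would mark about 1 in 20. It marked 17 values, 13 in inflamed and 4 in desert tumours, and 9 of the 17 belong to AF2-2797. No explanation was tested for any of them.

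In the inflamed tumour AF2-2797, the tumour that stood apart in likeness, Epcam stood at 10.15 (other inflamed tumours 2.74 to 4.39), Cdh1 at 7.25 (0.72 to 3.48), Eif2b4 at 8.58 (5.14 to 6.37) and Tnfrsf18 at 5.15 (1.13 to 2.79), all above the rest. In the same tumour Ptgs2 stood at 1.71 (6.76 to 10.48), Inhba at 2.23 (5.61 to 6.96), Hdac3 at 4.34 (5.81 to 6.34), Oas1a at 5.50 (6.88 to 7.69) and Ccnd1 at 8.23 (9.29 to 10.09), all below the rest. The pair of libraries averaged here agreed, with Epcam at 10.09 and 10.21 and Ptgs2 at 1.56 and 1.87. Ptgs2 and Inhba lie under the detection limits of this pair, 3.54 and 3.30.

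In other inflamed tumours, HF2-2968 had Cd3e at 5.48 (others 1.72 to 3.31) and Tap1 at 7.69 (5.33 to 6.11), GF2-2952 had Stc1 at 8.26 (3.87 to 5.68), and LF2-5248 had Snai1 at 6.69 (5.29 to 5.63). In desert tumours, CF2-2819 had Eif2b4 at 6.66 (others 5.84 to 5.93), G0 had Tap1 at 4.43 (5.30 to 5.46), FF2-2809 had Cd6 at 2.49 (0.27 to 0.63), and F0 had Tnfrsf18 at -2.54 (0.84 to 1.72). The desert values of Cd6 and Tnfrsf18 lie under the detection limits of their libraries.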

How the results depend on the processing

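The count of called genes stayed at 0 under 31 of 33 alternatives. It was 2 (S100a8 and Hdc, both lower in inflamed tumours) with the excluded libraries in the fit, where CF2-2784-1 and CF2-2784-2 entered as 2 samples. With 1 tumour left out at a time it was 0 to 2, the 2 arising without inflamed replicate 11, GF2-2952. The interaction with code type gave 1 gene, Hsd11b1 (chosen after its values were seen), with values raised to the detection limit. Genes at an unadjusted p under 0.05 numbered 21 (F2 codes alone) to 95 (without desert FF2-2809), against 56, with 35 with low-count libraries included, 34 without letter H, and 36 to 95 without 1 tumour. Over the 77 named genes, 2610 of 2666 alternative values were classed as the same, 28 as moved and 4, of S100a8 and Hdc, as past the threshold. Direction reversed in 24 values of fitted settings, for 12 genes whose differences over the 12 tumours lay between -1.20 and 0.79. C1qa was -0.0161 with the pair kept as 2 samples, -0.0146 with 1 average per letter and class, -0.0209 without letter C and -0.27 without letter H. Ptprc was -0.0266 with the pair kept as 2, -0.0136 with letter averages, -0.10 in F2 codes and -0.22 without letter H. C2 was -0.0736 without letter H. Without letter C, Ccl24 was -0.0881, Csf1r -0.0568 and Hdac3 0.13. Without AF2-2797, which is also letter A, Cd68 was 0.20, Eif2b4 -0.31 and Hdac3 0.0876. Eif2b4 was -0.0073 without letter F, Cxcl9 -0.0353 and Ms4a1 -0.10 without letter G, and Tpsab1 0.44 in F2 codes. With quantile normalisation Ms4a1 was -0.14 and Siglecf -0.0423. Values within letter G and within the codes that carry 0 had no test and are not among the 24. They do count among the 2666, as the same or as moved even where their sign is opposite. The 2610 is therefore not a count of kept signs. Some also had the opposite sign, such as Bmp2 at 0.24 within letter G and Itgax at -0.19 within the codes that carry 0. The cause of these changes was not tested. Medians of the lists changed sign in 113 of 1013 alternative values. No paired analysis was possible because no label pairs an inflamed with a desert tumour. Blocks for the code series or the letter left the count of called genes at 0, with 65 and 52 genes at an unadjusted p under 0.05. With 12 tumours of 6 letters, genes under the detection limit carry the least information.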
